A study of Mus musculus with 18 samples.

Results

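The genes of hepatic fatty acid oxidation and the targets of PPAR-alpha were examined in the livers of mice given ethanol or a control diet, with and without *Apoe*. The list held 50 genes, picked by symbol for their roles, at a time when earlier results of these data were known, and all 50 were among the 15052 genes with a value for every mouse. There were 3 regulators, 3 genes of uptake, binding and activation, 4 of the carnitine shuttle, 14 of mitochondrial beta-oxidation, 10 of peroxisomal beta-oxidation, 6 acyl-CoA thioesterases, 5 genes of omega-oxidation, 1 of ketogenesis and 4 secreted factors and further PPAR-alpha targets.

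Poly(A) RNA from the liver of 18 mice had been sequenced, of which 9 were WT (4 pair-fed and 5 EtOH-fed) and 9 *Apoe* KO (5 pair-fed and 4 EtOH-fed). All were 10 to 12 weeks old, and all drank a liquid diet, which for the EtOH-fed mice contained 5% (v/v) ethanol for 10 days after 5 days of acclimation. On day 11 the EtOH-fed mice were gavaged with ethanol at 5 g/kg and the pair-fed mice with dextrin maltose at 9 g/kg, and 9 h passed before the livers were taken. WT mice were C57BL/6 J, and the *Apoe* KO was a line bought from The Jackson Laboratory that lacks the gene in every cell type and not in macrophages or hepatocytes alone.

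Long fatty acids reach the mitochondrion only as carnitine esters, made by carnitine palmitoyltransferases, and are then shortened stepwise by acyl-CoA dehydrogenases, hydratases, hydroxyacyl-CoA dehydrogenases and thiolases. Very long and branched chains are shortened first in the peroxisome, which makes hydrogen peroxide, and the cytochromes P450 of the Cyp4a family oxidize the far (omega) end of the chain. PPAR-alpha is a nuclear receptor that binds fatty acids, pairs with RXR and switches on genes of all these routes in the fasting liver, where acetyl-CoA is passed on as ketone bodies.

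The values were read counts per gene that the authors had scaled to nearly the same total in every mouse, from 32267493 to 32292618, and rounded, so that they do not give the sequencing depth of a mouse. In some mice as many as 82.8% of the possible values between 1 and 99 did not occur, so that 1 read stands for several units there and the lowest values are the least precise. *Apoe* itself ranged from 611230 to 798431 in the WT mice and from 8586 to 108651 in the KO mice, on the side its labels give in every mouse. The labels call all mice female, but EtOH-fed *Apoe* KO mouse 1 had an *Xist* value of 826 against 15227 to 30379 in the other 17 mice, and a *Ddx3y* value of 1077 against 2 to 118. It went against its label in this respect. Counts of called genes of the list are therefore given with and without it for ethanol in KO mice and for the EtOH-fed genotypes. Other counts include it unless stated. Summed markers of hepatocytes (10 of 10 listed) overlapped among the 4 groups, from 2399464 to 4115164. By the limma test described below, 3 of the 10 were called higher with ethanol in WT mice. In KO mice 1 was called higher and 2 lower with ethanol, and none was called between the genotypes.

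Which of these genes responded to ethanol was asked first in the WT mice. Many of them were lower with ethanol, among them 7 of the 10 peroxisomal genes. So were 3 of the 6 thioesterase genes and 3 of the 5 genes of omega-oxidation. Of the 14 genes of mitochondrial beta-oxidation, 3 were lower. *Acadm* and *Hadha*, like *Cpt1a* of the carnitine shuttle, showed no difference past the threshold. By limma's moderated test on log2(value + 1), with Benjamini-Hochberg adjustment over all 15052 genes and a threshold of 0.05 on the adjusted p, 22 of the 50 genes were lower and 2 (*Acot2* and *Fgf21*) higher in EtOH-fed than in pair-fed WT mice. Of all genes tested, 12.7% were called in either direction in this comparison, 6.52% of them lower and 6.19% higher. The median log2 fold change of the 50 genes was −0.34, and that of all genes was −0.011. The values of the 2 groups did not overlap for 21 lower and 3 higher genes of the list, and for 6.96% and 7.43% of all genes.

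In the *Apoe* KO mice, 17 of the 50 genes were lower and 3 (*Acot2*, *Fgf21* and *Creb3l3*) higher with ethanol, where 23.2% of all genes were called, 6.92% lower and 16.3% higher. The groups did not overlap for 14 lower and 3 higher genes of the list, and for 6.01% and 14% of all genes. The median of the 50 genes was −0.20 and that of all genes 0.126. Another scaling, by median-of-ratios size factors, moved the median of all genes to 0.00178 and that of the 50 genes to −0.33, with 20 lower and 2 higher, and turned the split of all called genes from 70.1% higher to 50.8% higher. Without EtOH-fed *Apoe* KO mouse 1 there were again 17 lower and 3 higher, with *Acaa1b* no longer called (adjusted p = 0.0830) and *Decr1* called in its place (adjusted p = 0.0369).

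The 2 ethanol responses were measured in separate mice. Both genotypes had 13 of the lower genes and 2 of the higher genes in common, and no gene was called in opposite directions. Of all 15052 genes, 2.6% were called lower in both and 4.28% higher in both. Another 9 were called lower in WT mice only, 4 lower and 1 higher in KO mice only, and 21 in neither. For these classes the shares over all genes were not worked out, so that the counts show nothing particular to the list. A call in one genotype and not in the other does not show that the responses differ, and the test of that difference is given further on. In bulk tissue, fewer cells of a type and less RNA per cell cannot be told apart for any of these genes.

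**Figure D1:**
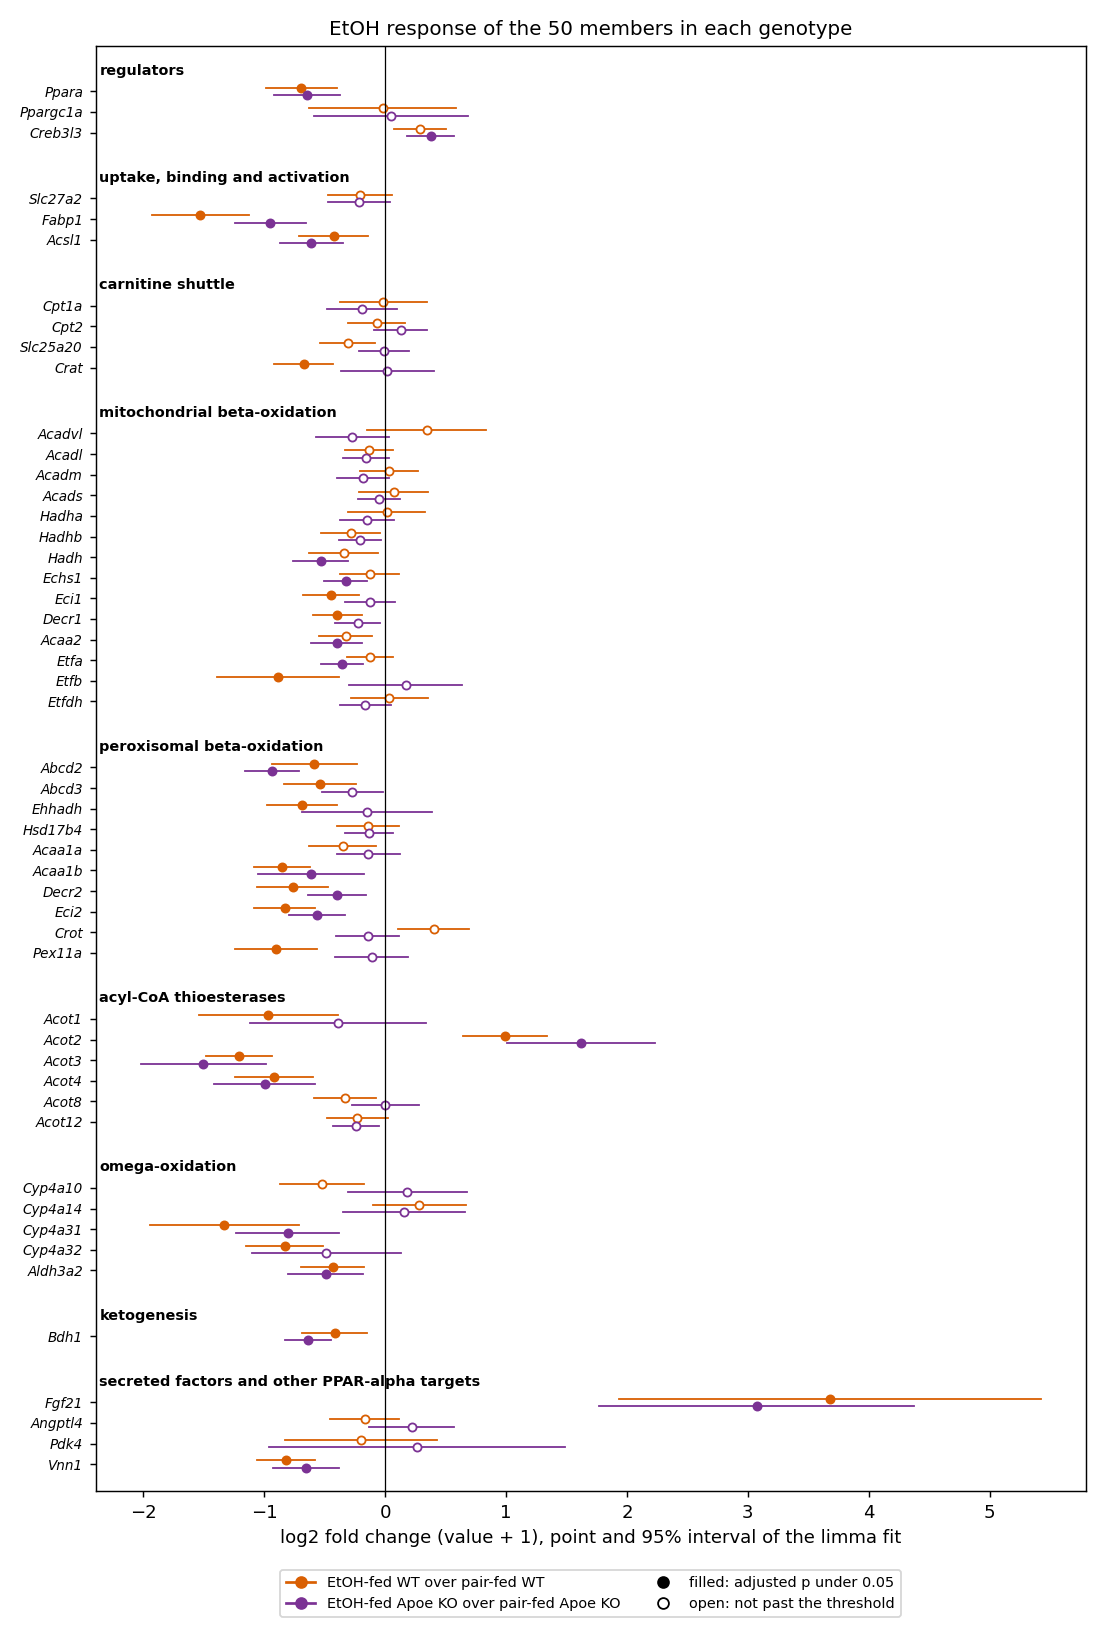
Log2 fold change of each of the 50 genes with ethanol, in WT mice (orange, 5 EtOH-fed and 4 pair-fed) and *Apoe* KO mice (purple, 4 EtOH-fed and 5 pair-fed), grouped by role. Points are the fitted values, bars the 95% intervals, and filled points an adjusted p under 0.05. In WT mice the peroxisomal genes lie mostly left of 0 (median −0.64) and most mitochondrial genes nearer to it (median −0.13). In KO mice the 2 medians are alike, at −0.21 and −0.20. *Fgf21* and *Acot2* lie to the right in both genotypes.

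Among the regulators, *Ppara*, which encodes the receptor PPAR-alpha (ENSMUSG00000022383, chr15:85734983-85802819 in GRCm38), fell with ethanol in both genotypes. Its scaled read count was 2316, 2328, 2117 and 2846 in the pair-fed WT mice and 1754, 1208, 1353, 1358 and 1798 in the EtOH-fed WT mice. It was 1577, 1618, 2314, 1857 and 1877 in the pair-fed KO mice and 1198, 1387, 1064 and 1061 in the EtOH-fed *Apoe* KO mice. In each genotype every EtOH-fed mouse lay below every pair-fed mouse. The log2 fold change was −0.69 ± 0.14 (SE) in WT mice (adjusted p = 0.00585) and −0.65 ± 0.13 in KO mice (adjusted p = 0.00278). *Creb3l3*, a liver transcription factor that acts beside PPAR-alpha in fasting, rose in KO mice by 0.38 ± 0.09 on the log2 scale (adjusted p = 0.00895), a call lost with median-of-ratios scaling (0.25, adjusted p = 0.107). The coactivator gene *Ppargc1a* differed by no more than 0.05 in either genotype, with 95% intervals that reached 0.59 in WT and 0.69 in KO mice on the higher side.

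*Fabp1* encodes the abundant fatty acid-binding protein of the hepatocyte cytosol and was the gene with the largest decrease of the list in WT mice. Per kb of exonic length it had the highest level of the 50 genes in pair-fed WT mice. Its scaled read counts were 140640, 151576, 152446 and 219352 in pair-fed WT mice and 49192, 59257, 49072, 50802 and 79784 in EtOH-fed WT mice. The pair-fed *Apoe* KO mice had 70820, 82925, 84325, 83061 and 113404, all below the pair-fed WT mice, with mouse 1 within the range of the EtOH-fed WT mice and the other 4 above it. The EtOH-fed *Apoe* KO mice had 49614, 40273, 41811 and 46867. The change with ethanol was −1.53 ± 0.19 in WT mice (adjusted p = 0.00025) and −0.95 ± 0.14 in KO mice (adjusted p = 0.000387), and both calls held under every alternative run.

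*Fabp1* lies at chr6:71199827-71205023 (GRCm38, plus strand) and is a classical PPAR-alpha target.

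Short transcripts moved together in these libraries. Among genes with a mean value of at least 200, the 465 whose longest coding transcript was under 1000 nt had a median log2 fold change of −0.19 with ethanol in WT mice, against 0.034 for the longer ones, and of −0.23 for KO against WT in pair-fed mice, against 0.051. In the KO mice the ethanol medians were 0.030 and 0.091. *Fabp1* (553 nt), *Etfb* (893 nt) and *Fgf21* (951 nt), which rose, are the 3 such short transcripts of the list, and the part of transcript length in their differences was not tested. *Acsl1*, the long-chain acyl-CoA synthetase, fell in KO mice by 0.61 ± 0.12 on the log2 scale (adjusted p = 0.00317). In WT mice it was called at −0.43 ± 0.13 (adjusted p = 0.0493) and was not called without any 1 of pair-fed mice 1, 3 and 4 or of the 5 EtOH-fed mice (adjusted p from 0.0504 to 0.123). The WT call of *Acsl1* was also lost with median-of-ratios scaling, a pseudocount of 0.1, array weights or a replicate block (alternatives described below). The transporter gene *Slc27a2* had −0.21 and −0.22, neither past the threshold.

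Of the 4 genes of the carnitine shuttle, 1 was called in WT mice and 0 in KO mice. *Cpt1a*, the rate-limiting carnitine palmitoyltransferase of the outer membrane, had 14250, 14732, 16626 and 13371 in pair-fed WT mice and 17392, 18502, 12600, 16209 and 9922 in EtOH-fed WT mice. In the KO mice it had 13543, 15570, 18552, 15701 and 11477 when pair-fed and 14263, 14954, 11426 and 11547 when EtOH-fed. The groups overlapped throughout, and the log2 fold change was −0.01 in WT mice (95% interval −0.37 to 0.35) and −0.19 in KO mice (−0.48 to 0.10). *Cpt2* and *Slc25a20*, which return the acyl group to CoA inside the mitochondrion and carry its carnitine ester across the inner membrane, lay between −0.31 and 0.13 and were not called.

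*Crat*, the acetyltransferase for short-chain carnitine esters, was the exception in the carnitine shuttle. It had 3273, 3098, 3261 and 3720 in pair-fed WT mice and 2586, 1984, 2006, 1803 and 2131 in EtOH-fed WT mice. The pair-fed *Apoe* KO mice had 1683, 1348, 2511, 2417 and 1683, and the EtOH-fed *Apoe* KO mice 1947, 2428, 1633 and 1673. The pair-fed WT mice thus lay above all other mice. It fell by 0.67 ± 0.11 with ethanol in WT mice (log2 scale, adjusted p = 0.00231) and had a fold change of 0.02 ± 0.18 in KO mice.

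In mitochondrial beta-oxidation, 3 of 14 genes fell in WT mice (*Eci1*, *Decr1* and *Etfb*) and 4 of 14 in KO mice (*Hadh*, *Echs1*, *Acaa2* and *Etfa*), with medians of −0.13 and −0.20. *Acadm*, the medium-chain acyl-CoA dehydrogenase, had 11951, 10618, 13020 and 11106 in pair-fed WT mice and 12289, 13310, 12128, 12333 and 9778 in EtOH-fed WT mice. In KO mice it had 14116, 12465, 15718, 14770 and 13950 when pair-fed and 12894, 14105, 12302 and 10870 when EtOH-fed. Neither difference passed the threshold (0.03 and −0.18). *Hadha*, the alpha subunit of the trifunctional protein, had 14665, 10596, 14607 and 10078 against 13598, 14178, 10245, 13648 and 10863 in WT mice, and 13661, 14255, 13183, 14751 and 13033 against 13733, 13639, 12716 and 9924 in KO mice. Its fold changes were 0.01 (95% interval −0.31 to 0.33) and −0.15 (−0.38 to 0.07).

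The 4 mitochondrial genes called in KO mice encode later steps of the cycle and the electron acceptor. *Hadh*, the hydroxyacyl-CoA dehydrogenase for shorter chains, fell by 0.53 ± 0.11, the thiolase gene *Acaa2* by 0.40 ± 0.10, *Etfa* by 0.36 ± 0.08 and the hydratase gene *Echs1* by 0.33 ± 0.08 on the log2 scale (adjusted p from 0.00308 to 0.0123). The same 4 genes had −0.34 ± 0.13, −0.33 ± 0.10, −0.12 ± 0.09 and −0.13 ± 0.11 in WT mice, not past the threshold. *Acaa2* came close to it there (adjusted p = 0.0510). For *Acaa2* and *Etfa* every EtOH-fed WT mouse lay below every pair-fed WT mouse. In WT mice *Decr1* and *Eci1*, which handle unsaturated chains, fell by 0.40 ± 0.09 and 0.45 ± 0.11. *Eci1* was not called without pair-fed WT mouse 4 (adjusted p = 0.0508).

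*Etfb*, the beta subunit of the electron transfer flavoprotein, had 1896, 2240, 1586 and 3064 in pair-fed WT mice and 1049, 864, 1340, 883 and 1917 in EtOH-fed WT mice. The pair-fed *Apoe* KO mice had 1115, 653, 1114, 852 and 1650, and the EtOH-fed *Apoe* KO mice 1366, 1179, 884 and 1257. EtOH-fed WT mouse 5 overlapped with the pair-fed WT mice. The change in WT mice was −0.88 ± 0.23 (adjusted p = 0.0259), a call lost without any 1 of pair-fed mice 2 and 4 and EtOH-fed mice 1, 2 and 4 (adjusted p from 0.0530 to 0.0865). Of the 50-base stretches of its longest coding transcript (chr7:43444083-43457800), 67.3% also occur in *Gm45233*, a gene annotated over it, so that its counts are uncertain. Its partner subunit *Etfa* had −0.12 in WT mice, not past the threshold.

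Peroxisomal beta-oxidation held the highest share of lower genes among the roles with more than 6 genes in WT mice, 7 of 10, and their median fold change was −0.64 on the log2 scale. The KO mice had 4 of 10 and a median of −0.21. *Ehhadh*, the bifunctional hydratase and dehydrogenase, had 15091, 9985, 14606 and 13858 in pair-fed WT mice and 9374, 7977, 8672, 6915 and 8372 in EtOH-fed WT mice, which did not overlap. It had 10775, 9293, 17811, 16742 and 12302 in pair-fed KO mice and 10618, 21361, 9846 and 8317 in EtOH-fed KO mice, among which mouse 2 had the highest value of all 18 mice. The fold change was −0.68 ± 0.13 in WT mice (adjusted p = 0.00562) and −0.15 ± 0.25 in KO mice.

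*Acaa1b*, a peroxisomal thiolase, fell from 43425, 44296, 47180 and 44957 in pair-fed WT mice to 28240, 23950, 25366, 22623 and 24785 in EtOH-fed WT mice. The pair-fed KO mice spread widely, at 31734, 20927, 49685, 45407 and 30561, and the EtOH-fed KO mice had 21228, 25324, 22553 and 20086. The WT groups lay far apart, whereas pair-fed KO mouse 2 lay within the range of the EtOH-fed KO mice. The fold change was −0.85 ± 0.11 in WT mice (adjusted p = 0.000326). In KO mice it was −0.62 ± 0.20 (adjusted p = 0.0426), and it was not called without any 1 of pair-fed mice 1, 3, 4 and 5 or of the EtOH-fed mice (adjusted p from 0.0513 to 0.114). The KO call was also lost with the replicate block. *Acaa1b* and *Acaa1a* share 35.5% and 34.0% of their 50-base stretches, so that reads may be split between them.

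*Eci2*, which shifts double bonds in the peroxisome, had 10084, 7781, 8128 and 8084 in pair-fed and 5779, 4303, 4512, 4385 and 5024 in EtOH-fed WT mice. It had 6798, 7883, 8852, 7925 and 8717 in pair-fed and 5844, 6163, 4692 and 5087 in EtOH-fed KO mice. Neither genotype showed an overlap between diets, and the changes were −0.83 ± 0.12 (adjusted p = 0.000742) and −0.56 ± 0.11 (adjusted p = 0.00227). *Decr2*, the peroxisomal dienoyl-CoA reductase, fell by 0.77 ± 0.14 and 0.40 ± 0.11. Its call in KO mice was lost without EtOH-fed mouse 4 or 5 (adjusted p from 0.0609 to 0.0613) and with the replicate block.

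*Abcd2* encodes a transporter that carries very long-chain acyl-CoA into the peroxisome. It had 2484, 1802, 2196 and 1610 in pair-fed and 1437, 1550, 1276, 1535 and 948 in EtOH-fed WT mice, and 1846, 2011, 2229, 2256 and 1779 in pair-fed and 962, 1067, 1028 and 1169 in EtOH-fed KO mice. The diets did not overlap in either genotype. In KO mice the change of −0.93 ± 0.10 had the lowest adjusted p of the list (6.76e-05). In WT mice it was −0.59 ± 0.16 (adjusted p = 0.0319) and was not called without any 1 of pair-fed mice 1, 2 and 3 and EtOH-fed mouse 3 (adjusted p from 0.0541 to 0.0907). The WT call of *Abcd2* was also lost with median-of-ratios scaling or the replicate block. *Abcd3*, a related transporter, fell by 0.54 ± 0.14 in WT mice, a call lost without pair-fed mouse 1 or 3 (adjusted p from 0.0624 to 0.0673). That call was lost with the replicate block too.

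*Pex11a*, which takes part in the division of peroxisomes, had 7405, 5776, 7651 and 7501 in pair-fed and 5001, 3005, 4383, 2954 and 3898 in EtOH-fed WT mice. It had 4933, 4239, 5803, 6211 and 5962 in pair-fed and 5178, 6216, 4945 and 3845 in EtOH-fed KO mice. The WT groups did not overlap and the KO groups did. The changes were −0.90 ± 0.16 (adjusted p = 0.00301) and −0.11 ± 0.14. *Crot*, *Hsd17b4* and *Acaa1a* were not called in either genotype, and *Crot* was the only 1 of the 10 peroxisomal genes with a positive value in WT mice (0.40 ± 0.14).

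**Figure D2:**
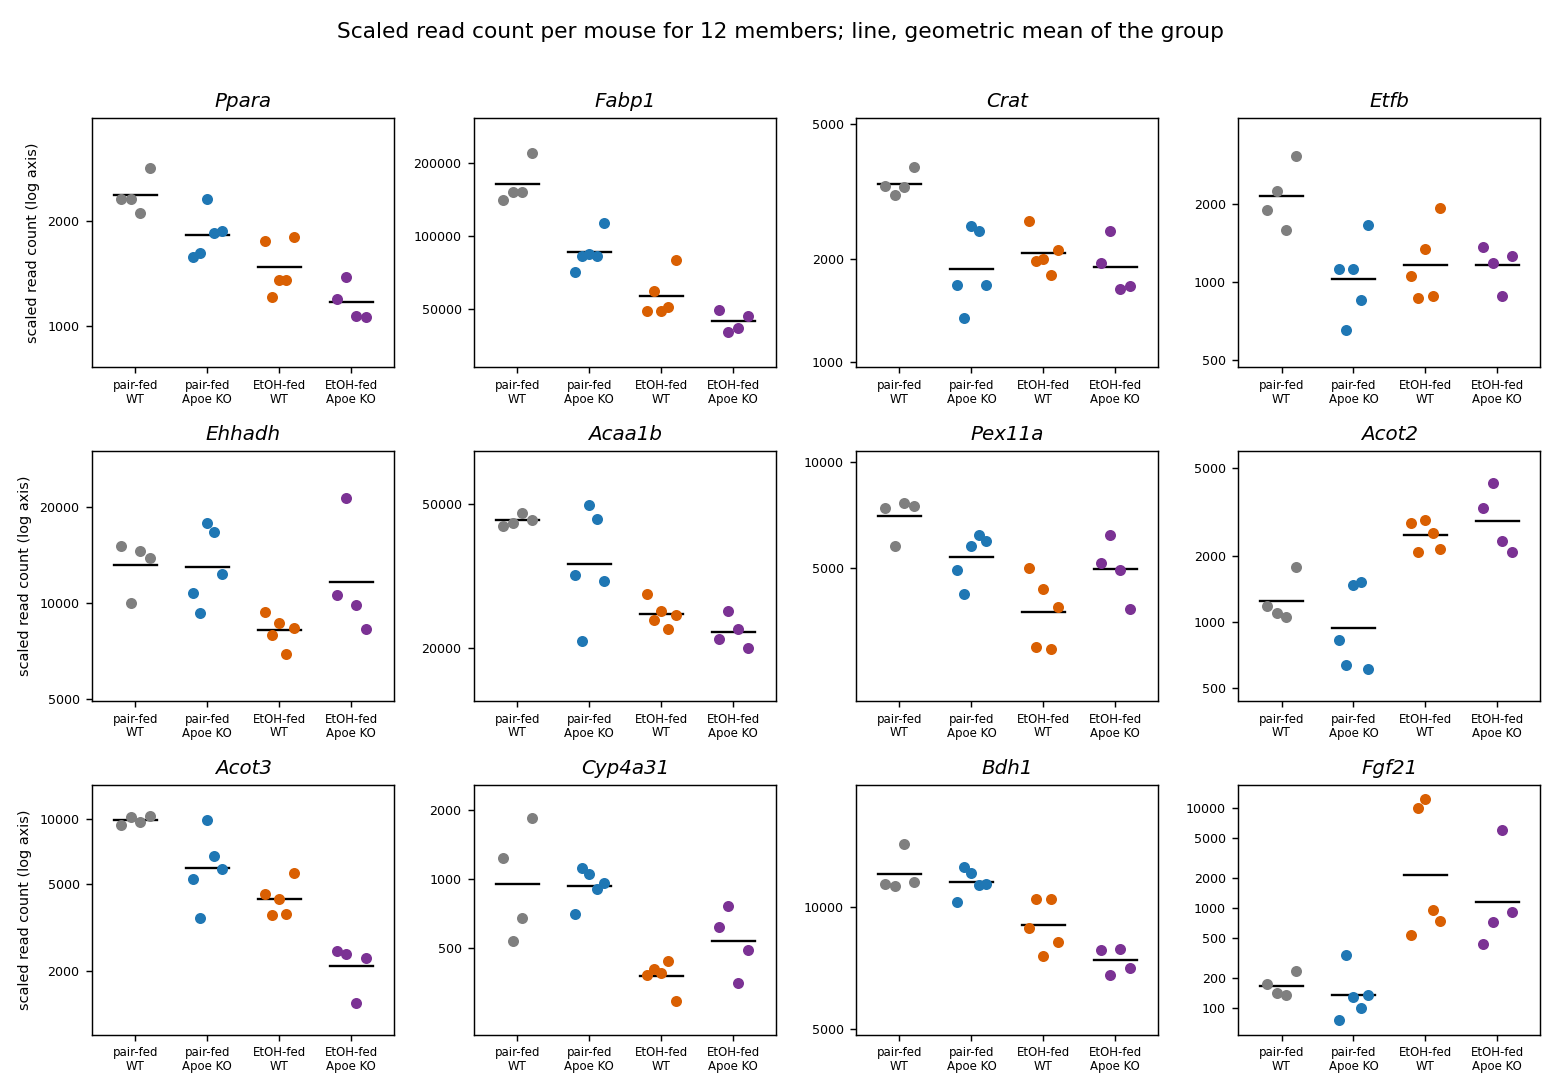
Scaled read count of each mouse (log axis, range differs by panel) for 12 genes in the 4 groups of 4, 5, 5 and 4 mice. Points are mice and lines the geometric means of a group. *Acot3* is lowest in the EtOH-fed *Apoe* KO mice, from 1416 to 2466, and *Fgf21* splits the EtOH-fed WT mice into 3 from 530 to 946 and 2 from 9952 to 12041.

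The acyl-CoA thioesterases, which release free fatty acids from CoA, moved in both directions within 1 gene cluster. *Acot2*, *Acot1*, *Acot4* and *Acot3* lie in this order between chr12:83987861 and chr12:84060402, all on the plus strand. *Acot2* encodes the mitochondrial enzyme, *Acot1* a cytosolic one, and *Acot3* and *Acot4* peroxisomal ones. With ethanol *Acot2* rose and *Acot3* and *Acot4* fell, in both genotypes.

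*Acot2* had 1176, 1099, 1052 and 1782 in pair-fed and 2821, 2088, 2922, 2544 and 2142 in EtOH-fed WT mice. It had 827, 638, 1466, 1515 and 610 in pair-fed and 3297, 4268, 2325 and 2084 in EtOH-fed KO mice. Every EtOH-fed mouse was above every pair-fed mouse of both genotypes. The changes were 0.99 ± 0.16 in WT mice (adjusted p = 0.00183) and 1.62 ± 0.29 in KO mice (adjusted p = 0.00148).

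*Acot3* had 9439, 10240, 9687 and 10293 in pair-fed WT mice, 5316, 3501, 9929, 6729 and 5858 in pair-fed KO mice, 4523, 3620, 4284, 3654 and 5632 in EtOH-fed WT mice and 2466, 2397, 1416 and 2280 in EtOH-fed KO mice. The EtOH-fed KO mice lay below all the others. It fell by 1.21 ± 0.13 on the log2 scale with ethanol in WT mice (adjusted p = 7.93e-05). In KO mice it fell to 0.353 times the pair-fed level (SE 0.24 on the log2 scale, adjusted p = 0.000804), the largest decrease of the list in KO mice. *Acot4* had 19661, 16512, 17648 and 20130 against 11198, 8182, 10054, 7456 and 12749 in WT mice, and 12144, 7906, 18680, 16522 and 13480 against 6696, 7598, 5781 and 6487 in KO mice. It fell to 0.528 times the pair-fed level in WT mice and 0.501 times in KO mice (SE 0.15 and 0.20 on the log2 scale), with no overlap between diets in either genotype.

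*Acot1* had 4085, 2383, 3667 and 3976 in pair-fed and 2588, 1199, 2257, 1030 and 2391 in EtOH-fed WT mice, and 2279, 1301, 3630, 3475 and 2775 in pair-fed and 2410, 3783, 1154 and 1319 in EtOH-fed KO mice. The diets overlapped in both genotypes. The change in WT mice was −0.97 ± 0.27 (adjusted p = 0.0309), not called without any 1 of pair-fed mice 1, 3 and 4 and EtOH-fed mice 2 and 4 (adjusted p from 0.0557 to 0.0904). With all 4 groups in 1 fit the call was lost as well. *Acot1* shares 33.2% of its 50-base stretches with other genes, chiefly *Acot2*. *Acot2* shares 27.7%, chiefly with *Acot1* (24.5%), so that reads may be split between the 2. *Acot3* shares 19.5%, chiefly with *Gm49366* (11.2%) and *Acot5* (6.06%), so that its counts are uncertain too. The 2 thioesterase genes outside the cluster, *Acot8* and *Acot12*, were not called in either genotype.

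In omega-oxidation the 4 Cyp4a genes, which encode fatty acid omega-hydroxylases, lie side by side from chr4:115486200 to chr4:115621602 and did not move alike. *Cyp4a31* had 1233, 539, 677 and 1834 in pair-fed WT mice and 382, 406, 388, 439 and 294 in EtOH-fed WT mice. It had 705, 1112, 1049, 904 and 961 in pair-fed KO mice and 620, 761, 352 and 492 in EtOH-fed KO mice. It fell by 1.33 ± 0.29 in WT mice (adjusted p = 0.00932) and 0.81 ± 0.20 in KO mice (adjusted p = 0.0106), with an overlap between diets in KO mice alone.

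*Cyp4a32* had 715, 940, 792 and 719 against 568, 391, 490, 387 and 399 in WT mice, and 607, 779, 1423, 897 and 661 against 603, 1031, 336 and 592 in KO mice. It fell by 0.83 ± 0.15 in WT mice (adjusted p = 0.00307), whose diets did not overlap, and had −0.49 ± 0.29 in KO mice. The 2 genes with far higher values, per kb as well, were not called. *Cyp4a10* had 28373, 20103, 27336 and 35959 against 21266, 16102, 21643, 16445 and 20659 in WT mice, and 22480, 13703, 29303, 25888 and 24181 against 24871, 40746, 18676 and 22240 in KO mice. Its difference in WT mice, −0.52 ± 0.16, came close to the threshold (adjusted p = 0.0507). It was called without pair-fed WT mouse 2 (adjusted p = 0.0211) and among genes with a mean value of at least 50 (adjusted p = 0.0459).

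*Cyp4a14* had 46605, 26347, 31245 and 36925 against 47572, 35326, 42020, 34720 and 53143 in WT mice, and 42203, 25665, 59567, 47715 and 46559 against 42445, 75930, 37991 and 41872 in KO mice. All groups overlapped, with differences of 0.28 ± 0.18 and 0.15 ± 0.23. These genes share sequence, with 46.8% of the 50-base stretches of *Cyp4a32*, 30.5% of *Cyp4a10* and 21.7% of *Cyp4a31* found in another gene, so the lower values of *Cyp4a31* and *Cyp4a32* are uncertain. *Aldh3a2*, the fatty aldehyde dehydrogenase that completes omega-oxidation, fell by 0.43 ± 0.12 in WT and 0.49 ± 0.15 in KO mice. The WT call was lost without any 1 of pair-fed mice 1, 3 and 4 and EtOH-fed mouse 2 (adjusted p from 0.0560 to 0.0861). Median-of-ratios scaling and the replicate block lost it as well. In KO mice the call was lost without pair-fed mouse 3 or 4 or EtOH-fed mouse 4 or 5 (adjusted p from 0.0538 to 0.0915).

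The ketogenic gene of the list, *Bdh1*, encodes the dehydrogenase that turns acetoacetate into beta-hydroxybutyrate. It had 11409, 11241, 14266 and 11517 in pair-fed and 8866, 10484, 7558, 10443 and 8217 in EtOH-fed WT mice, and 10282, 12550, 12117, 11301 and 11401 in pair-fed and 7850, 6796, 7873 and 7094 in EtOH-fed KO mice. The diets did not overlap in either genotype. It fell by 0.64 ± 0.09 in KO mice (adjusted p = 0.000297). In WT mice the change was −0.41 ± 0.12 (adjusted p = 0.0442). That call was lost without any 1 of the 4 pair-fed mice or EtOH-fed mice 1, 3 and 5 (adjusted p from 0.0671 to 0.113). Median-of-ratios scaling, array weights and the replicate block each lost it too.

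*Fgf21*, a hormone of the liver induced in fasting through PPAR-alpha and in cell stress through ATF4, had the largest change of the list. It had 173, 140, 135 and 234 in pair-fed WT mice and 76, 338, 128, 100 and 136 in pair-fed KO mice. With ethanol the values were 530, 9952, 12041, 946 and 742 in WT mice and 434, 723, 5936 and 915 in KO mice. All EtOH-fed mice were above all pair-fed mice, but WT mice 2 and 3 and KO mouse 4 stood far above their groups. The log2 fold change was 3.68 ± 0.81 in WT mice (adjusted p = 0.0105, from 3.05 to 4.18 over the alternatives) and 3.07 ± 0.61 in KO mice (adjusted p = 0.00294, from 2.28 to 3.54).

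*Fgf21* lies at chr7:45613886-45615490 (GRCm38, minus strand).

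Of the other secreted factors and PPAR-alpha targets, 1 fell in both genotypes and 2 were not called. *Vnn1*, a pantetheinase, was the one that fell. It had 3705, 4178, 5005 and 4001 against 2108, 2625, 2478, 2495 and 2214 in WT mice, and 3378, 4075, 4619, 4034 and 4800 against 2178, 2716, 3242 and 2538 in KO mice, with no overlap between diets. The changes were −0.82 ± 0.11 (adjusted p = 0.000534) and −0.65 ± 0.13 (adjusted p = 0.00265).

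*Angptl4*, an inhibitor of lipoprotein lipase, had 6160, 4385, 5051 and 4988 against 5234, 3677, 4009, 4803 and 5212 in WT mice, and 4732, 4027, 5648, 4920 and 5625 against 7067, 7400, 4028 and 5268 in KO mice. *Pdk4*, the kinase that shuts off pyruvate dehydrogenase in fasting, had 1441, 721, 681 and 1363 against 1237, 503, 1205, 658 and 978 in WT mice, and 660, 446, 3973, 1989 and 546 against 1219, 2977, 811 and 854 in KO mice. Neither was called, and *Pdk4* had the wider spread, with 95% intervals of −0.83 to 0.43 in WT and −0.96 to 1.49 in KO mice.

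*Apoe* KO was next compared with WT in pair-fed mice, which share their mice with the ethanol comparisons above. The loss of *Apoe* without ethanol came with lower *Fabp1*, *Crat* and *Etfb* and no other call. These 3 of 50 genes were lower and none was higher, where 1.73% of all genes were called, 0.864% lower and 0.87% higher, and the median was −0.017 against −0.0047 for all genes. At an unadjusted p under 0.05 there were 11 genes. The share over all genes was not worked out, so that nothing particular to the list can be read from this count. Between the groups, 2 lower and 2 higher genes did not overlap (3.02% and 4.01% of all genes). *Fabp1* was lower by 0.93 ± 0.18 on the log2 scale (adjusted p = 0.0191), *Crat* by 0.83 ± 0.16 (adjusted p = 0.0199) and *Etfb* by 1.05 ± 0.23 (adjusted p = 0.0364). For *Fabp1* and *Crat* the values of the groups given above did not overlap, while for *Etfb* KO mouse 5 overlapped with WT mouse 3. The count of 3 fell to 0 without WT mouse 2 or KO mouse 1, to 1 without WT mouse 4 or KO mouse 4, and to 2 without WT mouse 1, and *Etfb* was also not called without KO mouse 3. Each of the 3 calls was thus lost when certain single mice were left out, with adjusted p from 0.0529 to 0.0628 for *Fabp1*, 0.0579 to 0.0811 for *Crat* and 0.0571 to 0.136 for *Etfb*. *Fabp1* and *Etfb* are short transcripts. Of the short ones described above 4.73% were called lower here, against 0.834% of the longer ones. *Etfb*, *Fgf21*, *Pex11a* and *Echs1* lie on chromosome 7 as *Apoe* does, *Etfb* 23.7 Mb from it, and of these only *Etfb* was called. The part of length or position was not tested.

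Of the uncalled genes, *Slc27a2* (0.24 ± 0.12, adjusted p = 0.278) and *Crot* (0.35 ± 0.11, adjusted p = 0.0957) had every KO mouse above every WT mouse. That is 2 of the 50 genes, near the 4.01% of all genes that were apart in this way. *Acadvl* and *Acot3* had larger differences, but their groups overlapped. *Acadvl*, the very long-chain acyl-CoA dehydrogenase, was at 4460, 3262, 5341 and 2429 in WT and 6756, 6983, 6371, 6673 and 4898 in KO mice (0.76 ± 0.19, adjusted p = 0.0538). *Acot3* had −0.74 ± 0.21 (adjusted p = 0.0828), with KO mouse 3 at 9929 within the WT range, and it was called without that mouse (−0.93, adjusted p = 0.0146).

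In EtOH-fed mice, *Acot3* was the only 1 of the 50 genes called between the genotypes. It was lower in KO mice by 1.04 ± 0.17 on the log2 scale (adjusted p = 0.00531), and the call held under every alternative. Of all genes 4.69% were called, 4.25% higher and 0.445% lower in KO mice. The median of the 50 genes was 0.11 and that of all genes 0.107, and with median-of-ratios scaling they were −0.017 and −0.020, so that no direction is read from the list. At an unadjusted p under 0.05 there were 13 genes, again without a share over all genes, so that this count shows nothing particular to the list. Between the groups, 1 lower and 1 higher gene did not overlap (1% and 7.12% of all genes). Without EtOH-fed *Apoe* KO mouse 1 the count was again 1 lower and 0 higher.

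Its neighbor *Acot4* had −0.56 ± 0.15 (adjusted p = 0.0518). It was called with median-of-ratios scaling (−0.69, adjusted p = 0.0376) and with the replicate block (−0.55, adjusted p = 0.0364). Among genes with a mean value of at least 50 it was called too (adjusted p = 0.0497). The same held without EtOH-fed WT mouse 2 (−0.62, adjusted p = 0.0476) or 4 (−0.66, adjusted p = 0.0223). *Abcd2* was called without EtOH-fed WT mouse 5 (−0.46, adjusted p = 0.0441). *Ppara* was at −0.33 ± 0.14 (adjusted p = 0.212). *Creb3l3* was at 10780, 12357, 11020, 11358 and 10702 in WT and 15040, 14210, 14333 and 12404 in KO mice, apart but not called (0.31 ± 0.10, adjusted p = 0.0873). Of all genes, 7.12% were likewise apart and higher in KO mice.

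Markers of other cell types moved between the EtOH-fed genotypes. Summed markers of Kupffer cells (9 of 9 listed) were 16503 to 31011 in KO and 6897 to 12503 in WT mice. Those of monocyte-derived macrophages (9 of 9) were 8360 to 15836 and 4103 to 5828, and those of stellate cells (9 of 9) 19309 to 34772 and 11888 to 18751. No listed marker was at 0. Called higher in KO mice were 9 of 9 Kupffer cell markers, 6 of 9 of the macrophages and only 2 of 9 of the stellate cells, against 4.25% of all genes. Their part in the differences of the 50 genes was not tested. Between diets, the summed sinusoidal endothelial markers (7 of 7) were 7836 to 12666 in EtOH-fed and 4334 to 7022 in pair-fed mice, with 5 of 7 called higher in WT and 6 of 7 in KO mice. In KO mice the sums also rose out of the pair-fed range for stellate cells (11610 to 15441 pair-fed, 6 of 9 markers called higher), for monocyte-derived macrophages (6355 to 8139, 4 of 9) and for the 1 adipocyte marker of 5 with values (186 to 398 pair-fed, 672 to 1219 EtOH-fed). Of the Kupffer cell markers, 5 of 9 were called higher with ethanol in KO mice and 4 of 9 lower in WT mice, with sums that overlapped between diets (10655 to 20715 in pair-fed KO and 11040 to 20921 in pair-fed WT mice). The part of these cell types in the ethanol responses was not tested.

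**Figure D3:**
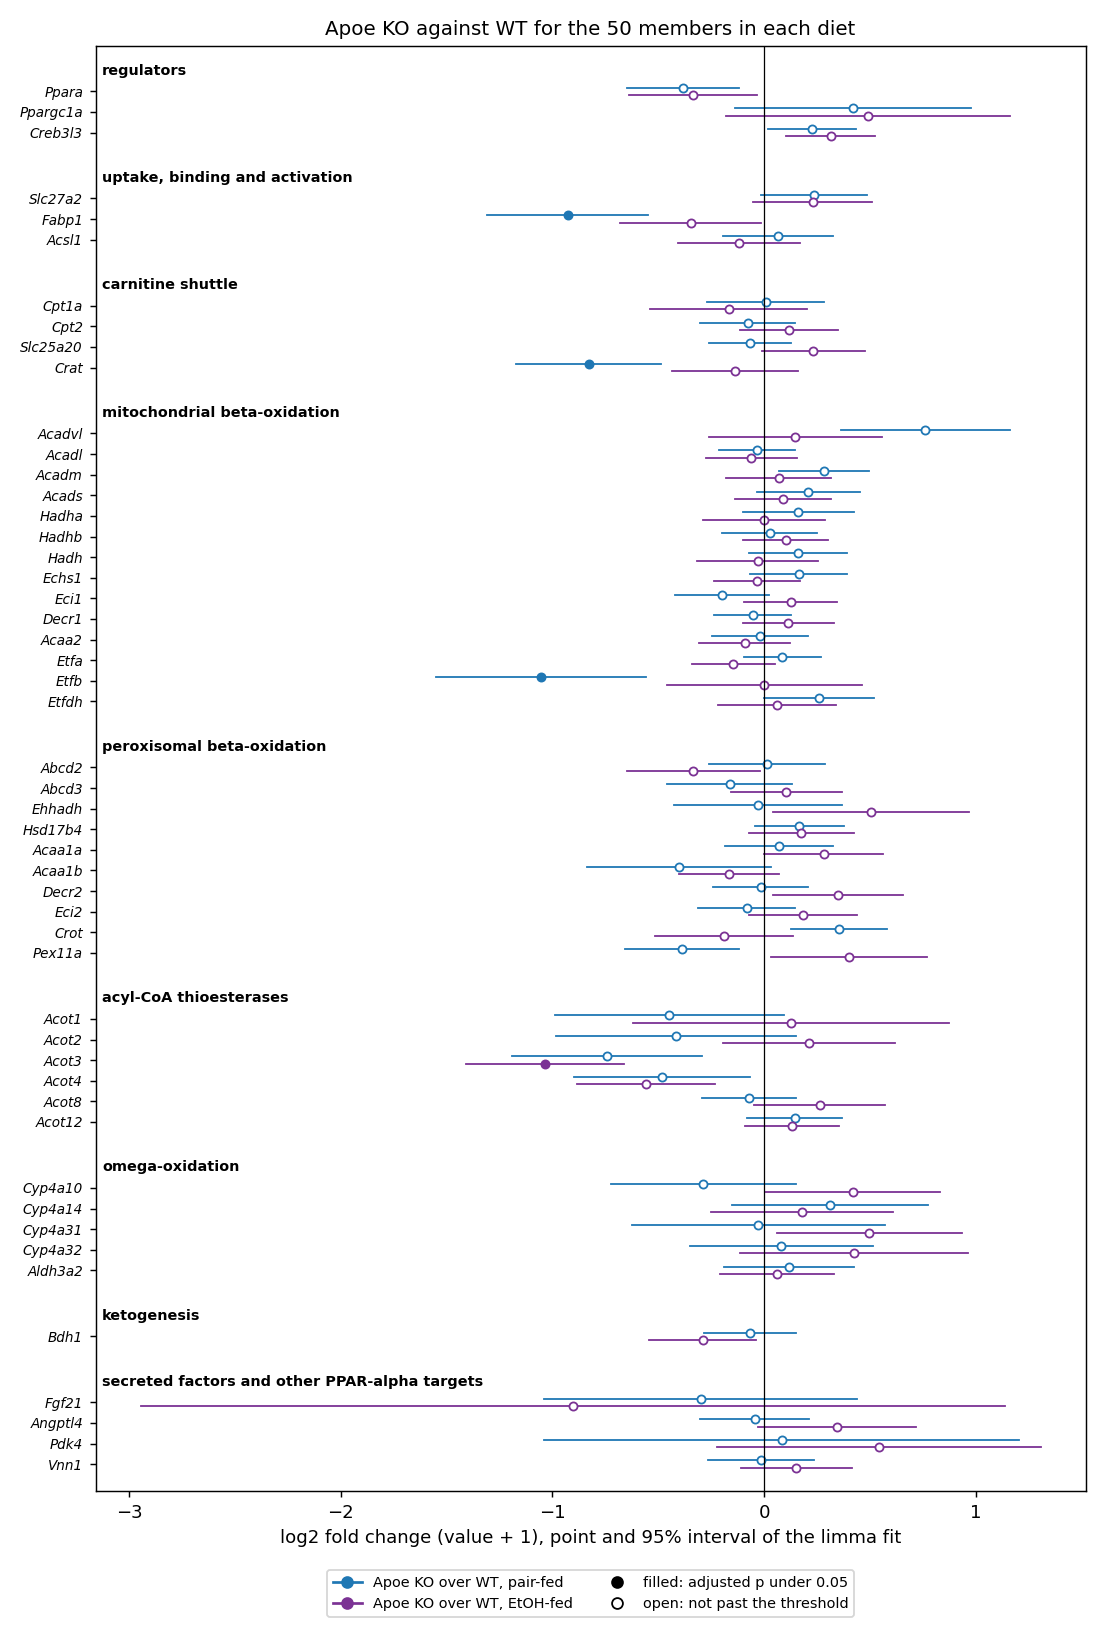
Log2 fold change of each of the 50 genes for *Apoe* KO over WT, in pair-fed mice (blue, 5 KO and 4 WT) and EtOH-fed mice (purple, 4 KO and 5 WT). Points are the fitted values, bars the 95% intervals, and filled points an adjusted p under 0.05. *Fabp1*, *Crat* and *Etfb* are called in pair-fed mice and *Acot3* in EtOH-fed mice.

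Whether the ethanol response differed between the genotypes was tested as an interaction in all 18 mice, where a positive value is a response further upward in KO mice. By limma none of the 50 genes passed the threshold, against 2.84% of all genes (2.6% higher and 0.239% lower). An unadjusted p under 0.05 was found for 10. The share over all genes was not worked out here either, so that the count shows nothing particular to the list. The lowest adjusted p was that of *Pex11a* (0.79 ± 0.23, adjusted p = 0.0662), followed among the genes named above by *Crat* (0.69 ± 0.23, adjusted p = 0.107) and *Etfb* (1.06 ± 0.35, adjusted p = 0.114). *Pex11a* was called without EtOH-fed WT mouse 1 (adjusted p = 0.0438) or EtOH-fed KO mouse 5 (adjusted p = 0.0446), and *Etfb* without pair-fed KO mouse 5 (adjusted p = 0.0497) or EtOH-fed WT mouse 5 (adjusted p = 0.0399). With the replicate block both were called, *Pex11a* at 1.05 (adjusted p = 0.0454) and *Etfb* at 1.74 (adjusted p = 0.00816). *Ppara* (0.05 ± 0.19) and *Fgf21* (−0.60 ± 1.15) had intervals that included 0. The median of the 50 genes was 0.074, against 0.107 for all genes, and −0.067 against −0.033 with median-of-ratios scaling.

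Mice of 1 group differed from each other in many of these genes at once. EtOH-fed *Apoe* KO mouse 2 had the highest value of its group in 29 of the 50 genes, among them *Ehhadh*, *Acot1*, *Acot2*, *Cyp4a10*, *Cyp4a14*, *Cyp4a31*, *Cyp4a32* and *Pdk4*. Pair-fed *Apoe* KO mouse 3 was highest in 28, with a *Pdk4* value of 3973 against 446 to 1989 in the others of its group, and mouse 2 of that group was lowest in 22. Among pair-fed WT mice, mouse 3 was highest in 22 genes and mouse 2 lowest in 26. EtOH-fed *Apoe* KO mouse 5 was lowest of its group in 25. The same counts were not made over all genes, so that nothing particular to the list can be read from them. Without EtOH-fed KO mouse 2, 19 genes were lower and 3 higher with ethanol in KO mice, and without pair-fed KO mouse 3, 15 and 3.

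**Figure D4:**
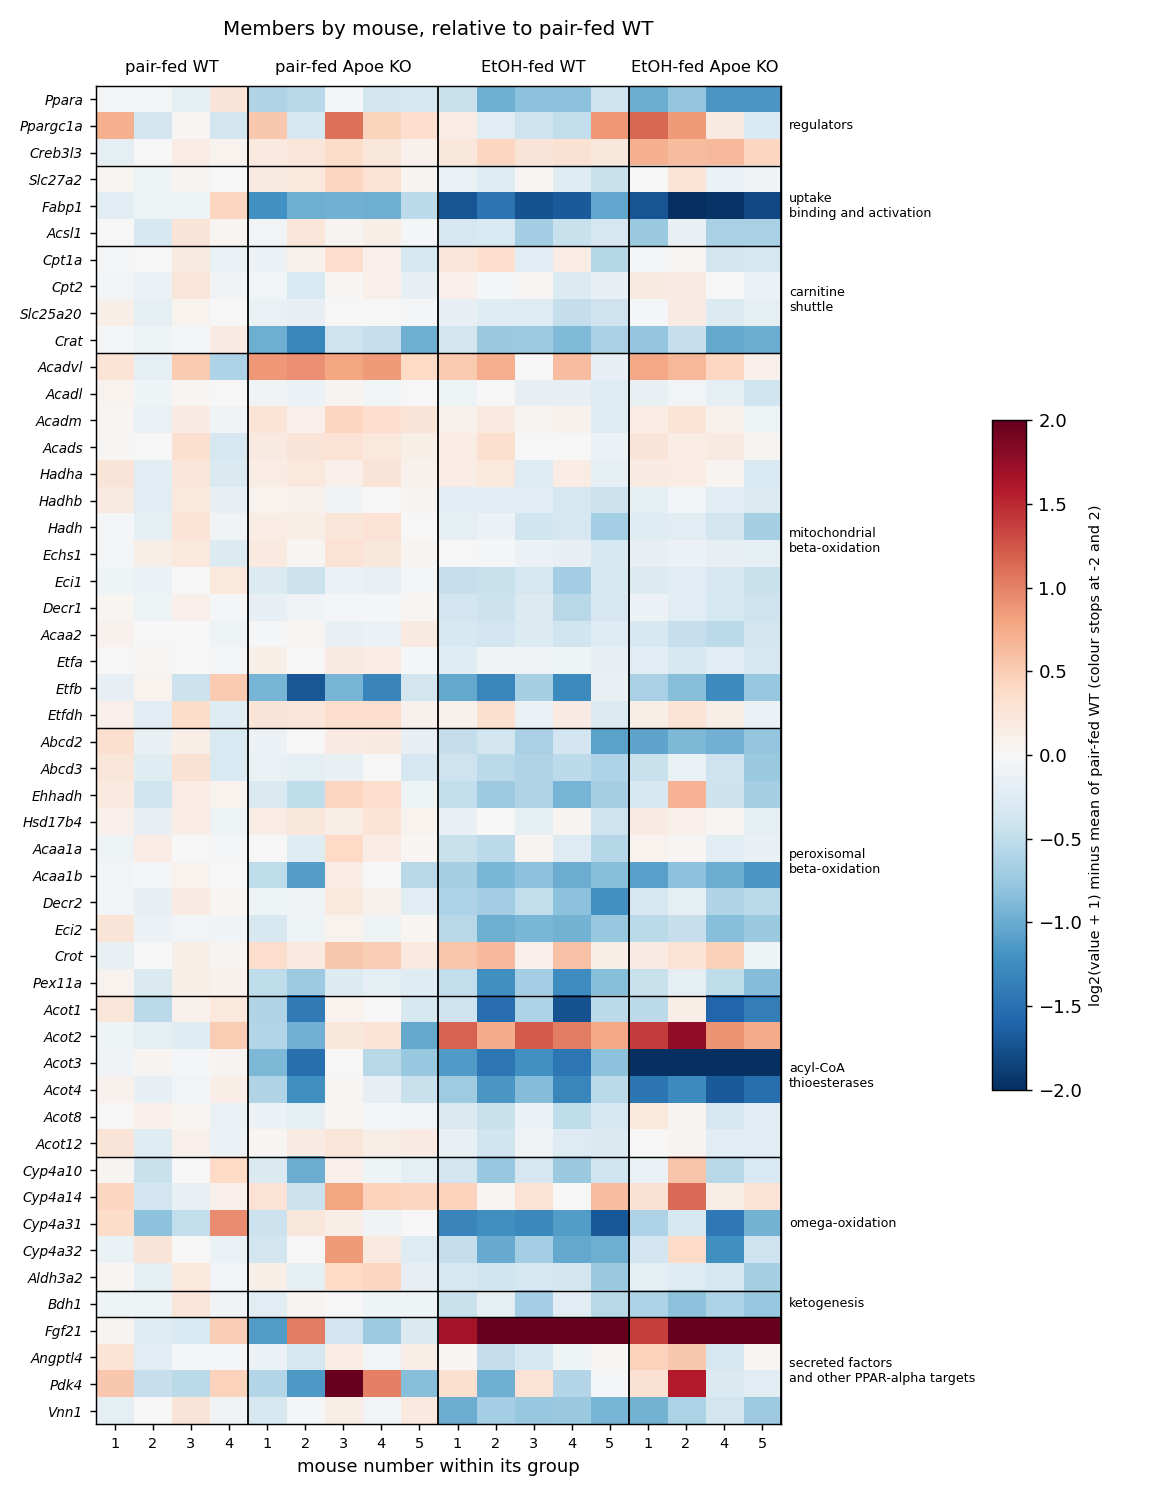
Each of the 50 genes (lines, grouped by role) in each of the 18 mice (columns), as log2(value + 1) minus the mean of the 4 pair-fed WT mice, with the color scale ending at −2 and 2. *Fabp1*, *Acot3* and *Acot4* are blue and *Fgf21* and *Acot2* red in all EtOH-fed mice, and EtOH-fed *Apoe* KO mouse 2 is redder than the others of its group in *Ehhadh*, *Cyp4a10*, *Cyp4a14* and *Pdk4*.

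A list of 88 further genes of fatty acid handling, of which 82 had values, gives the rest of the pathway. With ethanol 7 of the 82 were higher and 13 lower in WT mice, and 14 higher and 14 lower in KO mice. That is 24.4% of them in WT mice and 34.1% in KO mice, against the 12.7% and 23.2% of all genes given above. The higher ones in KO mice were near the share of all genes (16.3%), and in WT mice 6.19% of all genes were higher. In pair-fed mice 6 were lower and none higher in KO than in WT mice (limma, as above), and in EtOH-fed mice 4 were higher and 1 lower. Those are 7.32% and 6.10% of the 82, against 1.73% and 4.69% of all genes. *Cidec*, which encodes a protein of the lipid droplet surface, rose with ethanol by 1.97 ± 0.21 in WT mice (adjusted p = 7.82e-05) and 3.11 ± 0.29 in KO mice (adjusted p = 1.82e-05). *Dbi*, the acyl-CoA-binding protein and another short transcript, fell by 1.23 ± 0.13 in WT and 0.81 ± 0.12 in KO mice. *Lpin1*, a phosphatidate phosphatase and coactivator of PPAR-alpha, fell by 1.22 ± 0.26 in WT mice and had −0.37 ± 0.32 in KO mice, not past the threshold. *Plin2*, a lipid droplet coat protein, rose by 1.21 ± 0.17 in KO mice and had 0.17 ± 0.14 in WT mice, not past the threshold. *Slc16a1*, a transporter of lactate and ketone bodies, rose by 0.76 ± 0.09 in WT and 0.91 ± 0.17 in KO mice.

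Between genotypes in pair-fed mice, *Hacl1* (peroxisomal alpha-oxidation), *Dbi* and *Mgll* (monoacylglycerol lipase) were lower in KO mice by 0.85 ± 0.17, 0.80 ± 0.13 and 0.69 ± 0.11 on the log2 scale. *Hacl1* was not called without any 1 of WT mice 1, 2 and 4 and KO mouse 4 (adjusted p from 0.0538 to 0.0940). In EtOH-fed mice *G0s2*, an inhibitor of adipose triglyceride lipase, was lower in KO mice (−1.26 ± 0.25, adjusted p = 0.0120) and *Plin2* higher (0.89 ± 0.16, adjusted p = 0.00816). *Cidec* was higher by 1.09 ± 0.29 (adjusted p = 0.0488), a call lost without any 1 of the 5 WT mice or of KO mice 1, 2 and 5 (adjusted p from 0.0568 to 0.123). Median-of-ratios scaling and a pseudocount of 0.1 each lost the call of *Cidec* too. The interaction was called for 3 of the 82 genes, *Acacb*, *Plin2* and *Ucp2*, which is 3.66% of them and near the 2.84% of all genes.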

How the data were processed

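Livers of 18 mice in 4 groups were compared, and groups were taken from the deposited labels. According to the methods and the submitters' processing notes, the authors isolated RNA with TRIzol, selected poly(A) RNA, and used FastQC, Trimmomatic, HISAT2, SAMtools, featureCounts and DESeq2 with GRCm38. Versions are not given in the sources used here, nor is the scaling step. The deposited values are a signal, read counts scaled to a near-common total and rounded. They are not raw counts, and whole reads could not be recovered in every mouse, so the test of counts first foreseen was replaced by limma. The table also holds the authors' means, log2 fold changes, standard errors, test statistics, p-values and ranks, which were not used. Of its 15247 lines, 195 repeat a gene, leaving 15052 genes, the smallest with a mean of 12.1.

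The values were analyzed as log2(value + 1) with limma 3.58.1 in R 4.3.3 (intensity trend, Benjamini-Hochberg adjustment over all genes, no further filter), with only the mice of the 2 groups in each fit and all 18 for the interaction. Fold changes are thus on the log2(value + 1) scale, which understates low genes. The limma script was tested on simulated data. Positions and transcript lengths came from GENCODE M21 (GRCm38). Each value is from 1 mouse, and each mouse is 1 replicate. The members and lists were chosen with earlier results of these data known. Values per mouse are given for members called with a log2 fold change of at least 0.8 in size and for 14 fixed ones, and of the other pathway genes the 3 largest calls per comparison are named. *Acadvl* and *Creb3l3* were described per mouse, and *Slc27a2* and *Crot* singled out in pair-fed mice, after their values were seen. The alternatives were median-of-ratios scaling, a pseudocount of 0.1, a mean value of at least 50, all 4 groups in 1 fit, array weights, a replicate block and leaving out each mouse. Python 3.11.15, pandas 2.3.3 and matplotlib 3.10.9 were used for tables and figures.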

Additional observations from a re-analysis of the deposited data

Results flagged for a closer look

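In 9 of 200 sets of values (50 genes in 4 groups), 1 mouse stood apart from its group by Dixon's ratio of the gap to the range, and chance alone would give about 10. The ratios were 0.841 for *Acsl1* and 0.840 for *Cyp4a14* (both highest in EtOH-fed *Apoe* KO mouse 2), 0.859 for *Acot3* (lowest in EtOH-fed *Apoe* KO mouse 4) and 0.807 for *Aldh3a2* (lowest in EtOH-fed WT mouse 5). In pair-fed mice they were 0.835 for *Cpt2* and 0.898 for *Bdh1* (highest in WT mouse 3), 0.832 for *Eci2* (highest in WT mouse 1), 0.884 for *Pex11a* (lowest in WT mouse 2) and 0.741 for *Acadvl* (lowest in *Apoe* KO mouse 5).

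The ethanol response differed between genotypes by limma's interaction test in 3 other genes of the pathway. *Ucp2*, a carrier of the inner mitochondrial membrane, had an interaction of 1.45 ± 0.22 (log2 scale, adjusted p = 0.00329), with a decrease in WT mice (−0.60) and an increase in KO mice (0.85). *Acacb*, which makes the malonyl-CoA that inhibits carnitine palmitoyltransferase, had 1.21 ± 0.27 (adjusted p = 0.0165), and *Plin2* had 1.04 ± 0.23 (adjusted p = 0.0189). The call of *Plin2* was lost with median-of-ratios scaling (0.90, adjusted p = 0.0677).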

How the results depend on the processing

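Of 969 fold changes recomputed for named genes that had been called, 969 kept their direction. Among all 2534 recomputed, calls were lost in 74 without a mouse and in 20 under other settings, and 15 were gained; 91 fold changes that were called nowhere changed sign (main value at most 0.60 in size). Of the calls of the 50 genes, 16 of 24 in WT mice and 16 of 20 in KO mice with ethanol, 0 of 3 between pair-fed and 1 of 1 between EtOH-fed genotypes held under every alternative. Without each mouse in turn, the higher and lower genes of the list ranged from 2 to 3 and 16 to 20 (ethanol, WT), 3 to 3 and 14 to 19 (ethanol, KO), 0 to 1 and 0 to 3 (pair-fed genotypes), 0 to 0 and 1 to 2 (EtOH-fed genotypes) and 0 to 1 and 0 to 0 (interaction), and those of the 82 other genes from 4 to 8 and 7 to 12, 10 to 13 and 8 to 16, 0 to 3 and 2 to 6, 2 to 3 and 1 to 4, and 3 to 4 and 0 to 0. With all 4 groups in 1 fit, 4 genes of the list were higher with ethanol in WT mice and 1 was higher in EtOH-fed KO mice, and 1 other gene was higher in pair-fed KO mice. With median-of-ratios scaling, 8 other genes were higher with ethanol in KO mice, and between EtOH-fed genotypes 2 genes of the list were lower and 2 other genes higher and 2 lower; 3 group means moved by more than 1 SD. With a mean value of at least 50, 1 gene of the list was higher in pair-fed KO mice and 2 were lower in EtOH-fed KO mice, and with array weights 1 gene of the list and 1 other gene were higher in pair-fed KO mice. Leaving out a mouse leaves fewer samples; otherwise the cause was not tested.

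Mice share only a number across groups, and the deviations of same-numbered mice correlated from −0.217 to 0.230, not above 0.1 throughout in any comparison. With a replicate block on that number, 17 genes of the list were lower with ethanol in WT and 15 in KO mice, 1 was higher and 3 lower between pair-fed genotypes (1 other gene higher), 1 higher and 2 lower between EtOH-fed genotypes (9 other genes higher and 2 lower), and 2 higher and 2 lower in the interaction (1 other gene lower), where *Plin2* was no longer called (0.98, adjusted p = 0.0514). The totals fix no depth, so that counting error could not be given per mouse.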
